A study of Mus musculus with 8 samples.

Results

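The RNA of 10 genes that mark blood vessel endothelium was followed through mouse skeletal myogenic cells that were either freshly sorted or expanded in culture. The genes were Pecam1, Cdh5, Kdr, Flt1, Tek, Tie1, Emcn, Egfl7, Esam and Cldn5, taken by name from the 24980 gene symbols of the count table, and all 10 were found. They are named endothelial markers below. The series held 8 libraries in 4 groups of 2 biological replicates. TF cells were freshly isolated, teratoma-derived myogenic progenitors: EGFP-labelled E14 mouse embryonic stem cells had been placed in irradiated, cardiotoxin-injured leg muscle of NSG-mdx4Cv mice, and EGFP+ cells that were CD31-, CD45-, α7-integrin+ and VCAM-1+ were sorted from the teratomas. TE cells were such cells grown to passage 8 on gelatin in myogenic expansion medium. SF cells were freshly isolated endogenous satellite cells, the adult muscle stem cells, and SE cells were satellite cells grown to passage 8 in the same way. The TF and TE groups both come from 1 embryonic stem cell line. The satellite cells came from adult muscle. The strain and exact age of those animals, and the gate used to sort these cells, are not given in the sources used here, and no animal is named for any library.

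Endothelial cells line the inside of every blood vessel, and in skeletal muscle the capillaries run beside the fibres and their satellite cells. They are held together by VE-cadherin, PECAM-1 and claudin-5 at their junctions, and they survive and sprout under 2 receptor systems, the VEGF receptors and the TIE receptors for angiopoietins. CD31, one of the 2 antigens that the teratoma sort gated against, is the protein of Pecam1, and CD45, the other, is the protein of Ptprc, a marker of blood cells. The question put to the table was how much RNA of such markers each sorted or cultured library still held, gene by gene and replicate by replicate.

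All 8 libraries carried RNA of Pax7 and Itga7, myogenic genes that their labels call for. Pax7, the transcription factor of satellite cells, lay at 199 and 319 CPM (counts scaled to a common library size) in TF, 101 and 83.6 in TE, 231 and 270 in SF and 115 and 78.2 in SE. Itga7, which encodes the sorted α7-integrin, ranged from 152 CPM in TF replicate 1 to 384 CPM in SE replicate 2. The libraries held 11930961 to 21146632 estimated counts, so that 3 counts, used here as the floor of detection, corresponded to 0.141 to 0.252 CPM. Levels given as CPM were scaled to effective library sizes, and comparisons used edgeR's quasi-likelihood test over 17582 genes, with a gene called at an adjusted p below 0.05 and a change of more than 25%, or the same factor for a fall. Each fold change and adjusted p below comes from that test unless another is named, and each mean is of 2 replicates.

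TF replicate 1 stood apart from TF replicate 2 in blood-cell RNA. Ptprc was at 50.0 CPM in TF replicate 1 and at 6.38 CPM in TF replicate 2, against 3.71 and 1.55 CPM in SF and 0 in the 4 expanded libraries. The summed level of 12 haematopoietic markers was 546 CPM in TF replicate 1 and 55.7 CPM in TF replicate 2, and 55.9 and 43.2 CPM in SF. Results on TF are therefore also given without TF replicate 1 where a call was lost or gained or a value moved by over 1.5 times, and for most markers.

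The endothelial markers were present in all 4 fresh libraries and lower in all 4 expanded ones, where 4 were at 0 throughout and Egfl7, with Flt1 and Pecam1 in SE, stayed well above the floor. Their summed level was 340 and 105 CPM in TF, 387 and 493 CPM in SF, 3.39 and 2.65 CPM in TE and 7.83 and 7.28 CPM in SE. No marker was at 0 counts in a fresh library, whereas 5 were at 0 in TE replicate 1, 5 in TE replicate 2, 7 in SE replicate 1 and 5 in SE replicate 2. In bulk RNA, fewer cells of a type and less RNA per cell cannot be told apart. Pecam1 and Ptprc, whose proteins the teratoma sort gated against, both gave RNA in the fresh libraries. All 10 markers passed the filter on low counts, but only Pecam1, Flt1 and Egfl7 would have passed it on the expanded libraries alone, and the other 7 passed through the fresh ones.

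**Figure D1:**
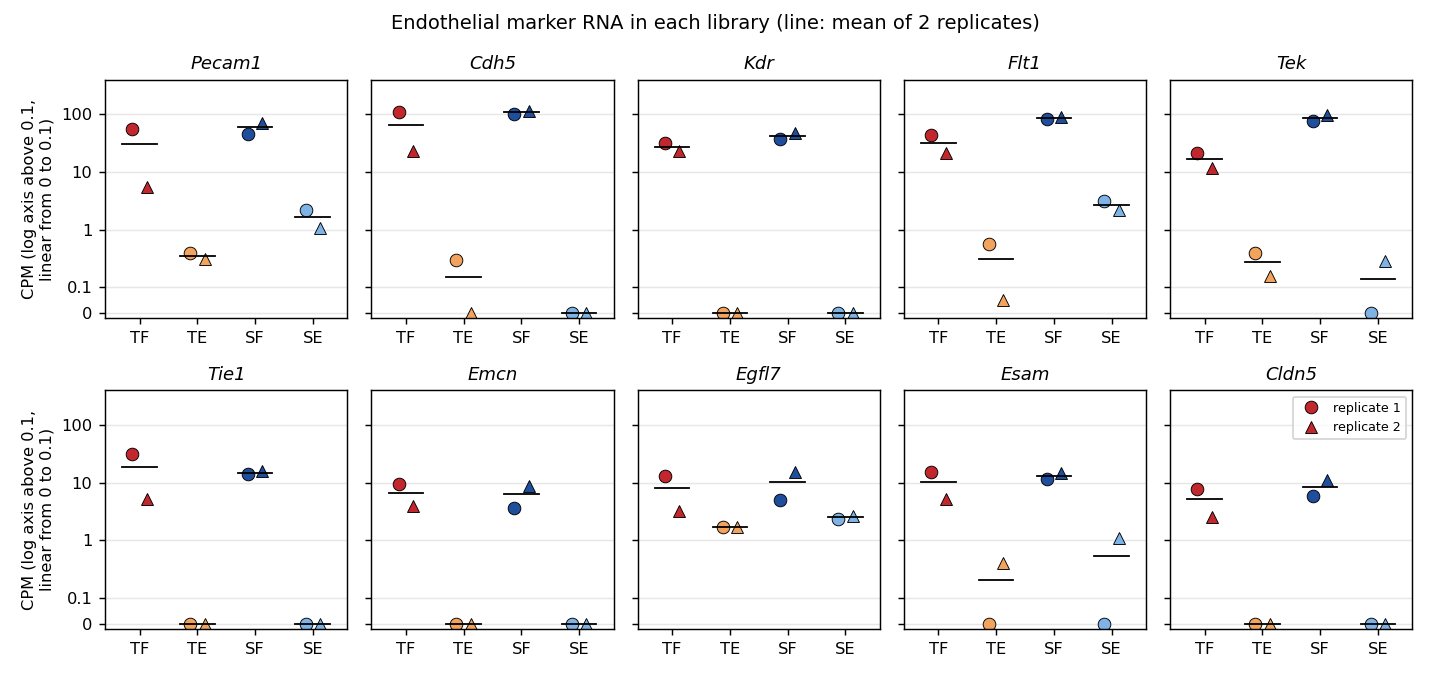
Level of each endothelial marker in CPM (axis logarithmic above 0.1 and linear from 0 to 0.1) in the 2 replicates of TF, TE, SF and SE, with a line at the mean. In every panel the 4 fresh libraries lie above the 4 expanded ones, Egfl7 has the smallest gap, and TF replicate 1 (circle) lies above TF replicate 2 (triangle).

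Pecam1, the CD31 adhesion molecule of endothelial junctions, was at 55.0 and 5.50 CPM in TF replicates 1 and 2 and at 46.7 and 72.5 CPM in SF. In culture it was at 0.403 and 0.311 CPM in TE, from 8 and 6 counts, and at 2.22 and 1.09 CPM in SE, from 47 and 19 counts. Fresh and expanded groups did not overlap in either lineage, but the 2 TF replicates lay 10 times apart. Pecam1 fell by 6.37 on the log2 scale from TF to TE (SE 1.06, adjusted p = 0.0020), by 3.89 without TF replicate 1 and by 7.20 without TF replicate 2. It fell by 5.15 from SF to SE (SE 0.936, adjusted p = 0.0020), and by 5.75 without SE replicate 1.

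Cdh5 encodes VE-cadherin, the cadherin of endothelial adherens junctions, and had the highest level per kilobase of the 10 genes in fresh cells. It was at 109 and 23.0 CPM in TF and at 101 and 115 CPM in SF. Of the expanded libraries only TE replicate 1 held any, 6 counts or 0.303 CPM, and the other 3 held none. Cdh5 fell by 8.68 from TF to TE on the log2 scale (SE 1.03, adjusted p = 0.00043) and fell by 7.14 without TF replicate 1. The value was −9.38 without TF replicate 2 and −7.71 without TE replicate 2. With TE replicate 1 left out it was at least 425-fold lower in TE. The mean of both TE libraries, 0.151 CPM, was under the group floor of 0.153 CPM, so the fall of 8.68 is not a measured size. In SE Cdh5 was at least 693-fold lower than in SF (adjusted p = 0.00013).

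Esam and Cldn5, both proteins of endothelial cell contacts, were lower in level. Esam, an immunoglobulin-type adhesion molecule, was at 15.6 and 5.19 CPM in TF and 11.6 and 14.9 CPM in SF. In each expanded group 1 replicate was at 0 and the other was not: 0 and 0.415 CPM in TE, from 8 counts, and 0 and 1.09 CPM in SE, from 19 counts. It fell by 5.61 on the log2 scale from TF to TE (SE 1.57, adjusted p = 0.0267) and fell by 4.63 from SF to SE (SE 1.46, adjusted p = 0.0301), with the largest errors among the markers. The call was lost without TE replicate 1 (−4.59, adjusted p = 0.0724) and without TF replicate 1 (−4.58, adjusted p = 0.0595), and in satellite cells without SF replicate 1 (−4.80, adjusted p = 0.0582) and without SF replicate 2 (−4.42, adjusted p = 0.0588). Without SE replicate 1 it fell by 3.58 there. With the replicate that held reads left out instead, Esam was at least 68.8-fold lower in TE and at least 93.9-fold lower in SE. Cldn5, the tight junction claudin best known from the blood-brain barrier, was at 7.90 and 2.55 CPM in TF, 5.81 and 11.2 CPM in SF and 0 in the 4 expanded libraries. It was at least 34.1-fold lower in TE than in TF (adjusted p = 0.0045), 16.6-fold without TF replicate 1 and 51.5-fold without TF replicate 2, and at least 54.5-fold lower in SE than in SF (adjusted p = 0.0020).

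The VEGF receptors Kdr and Flt1 differed in what was left in culture. Kdr, the main signalling receptor for VEGF-A on endothelium, was at 32.6 and 22.9 CPM in TF and 38.2 and 48.0 CPM in SF, the steadiest of the 10 markers between the 2 TF replicates. In all 4 expanded libraries it was at 0. Kdr was at least 181-fold lower in TE than in TF (adjusted p = 3.7e-05), 149-fold without TF replicate 1, and at least 275-fold lower in SE than in SF (adjusted p = 1.8e-05). Flt1, the decoy-like receptor VEGFR1 that binds VEGF-A, VEGF-B and placental growth factor, was at 43.3 and 21.4 CPM in TF and 83.3 and 91.8 CPM in SF. It was left at 0.564 and 0.0519 CPM in TE, the second value from a single count, and at 3.21 and 2.19 CPM in SE. Flt1 was thus above the floor in 3 of the 4 expanded libraries, and higher in both SE libraries than in either TE library. It fell by 6.69 on the log2 scale from TF to TE (SE 0.664, adjusted p = 9.6e-05) and by 5.01 from SF to SE (SE 0.557, adjusted p = 0.00011). The first of these was −5.82 without TE replicate 2 and −6.07 without TF replicate 1, and without TE replicate 1 it rested on 1 count.

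Tek and Tie1 encode the pair of TIE receptors, Tek being the receptor that binds angiopoietins. Tek was at 21.8 and 11.7 CPM in TF and at 77.6 and 99.1 CPM in SF. In culture it was at 0.403 and 0.156 CPM in TE, from 8 and 3 counts, and at 0 and 0.286 CPM in SE. Both SF libraries lay above both TF libraries, with the widest gap of the 10 markers. It fell by 5.86 on the log2 scale from TF to TE (SE 0.682, adjusted p = 0.00025) and by 9.31 from SF to SE (SE 0.778, adjusted p = 2.3e-05). The first value was −6.65 without TE replicate 1 and −5.33 without TF replicate 1, and the second was −8.21 without SE replicate 1 and at least 625-fold lower without SE replicate 2. The Tek mean in the SE group, 0.143 CPM, was under that group's floor of 0.156 CPM, so the fall of 9.31 is not a measured size. Tie1, the partner that binds no angiopoietin by itself, was at 31.5 and 5.34 CPM in TF, 14.0 and 16.2 CPM in SF and 0 in every expanded library. It was at least 120-fold lower in TE than in TF (adjusted p = 0.0015), at least 34.8-fold without TF replicate 1 and at least 205-fold without TF replicate 2. In SE it was at least 96.4-fold lower than in SF (adjusted p = 0.0010).

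Emcn and Egfl7 mark endothelium without being junction proteins or receptors of these growth factors. Emcn encodes endomucin, a sialoglycoprotein of capillary and venous endothelium, and was at 9.42 and 3.91 CPM in TF, 3.71 and 8.88 CPM in SF and 0 in all expanded libraries. It was at least 43.4-fold lower in TE than in TF (adjusted p = 0.0040), 25.5-fold without TF replicate 1, and at least 40.2-fold lower in SE than in SF (adjusted p = 0.0025), 23.7-fold without SF replicate 2. Egfl7, a protein that endothelial cells secrete into the vessel matrix, was the exception. It was at 13.0 and 3.27 CPM in TF, 5.01 and 15.3 CPM in SF, 1.71 and 1.71 CPM in TE and 2.40 and 2.63 CPM in SE. Every expanded library therefore held 33 to 51 Egfl7 counts, well above the floor, and the replicates of each expanded group lay close together while those of each fresh group did not.

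Egfl7 was the only marker that did not pass the threshold with culture, at −2.24 from TF to TE (SE 0.818, adjusted p = 0.0711) and −2.01 from SF to SE (SE 0.805, adjusted p = 0.0711). The value from TF to TE was −0.91 without TF replicate 1 (adjusted p = 0.553) and −2.89 without TF replicate 2 (adjusted p = 0.0230). That from SF to SE was −0.97 without SF replicate 2 (adjusted p = 0.442) and −2.60 without SF replicate 1 (adjusted p = 0.0389). Over the 15 alternative fits and left-out libraries it was called in 4 in either lineage. Egfl7 is also the host gene of the endothelial microRNA miR-126, and the table's rows Mir126a and Mir126b were at 0 in all 8 libraries. Whether these stranded total RNA libraries could capture a mature microRNA was not tested, so the rows give no level for miR-126.

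From TF to TE, 9 of the 10 markers were called lower, where 16.2% of the genes tested were called lower. From SF to SE it was again 9 of 10, where 19.8% of the genes tested were called lower, and the 9 were the same genes in both. All 10 markers had fresh and expanded replicates that did not overlap in each lineage, against 37.8% of genes tested that were lower without overlap from TF to TE and 38.4% from SF to SE. The median change of the 10, with genes at 0 set to their limit, was −6.12 on the log2 scale from TF to TE against −0.18 over all genes tested. From SF to SE it was −5.55 against −0.23. Of the 10 markers 4, namely Kdr, Tie1, Emcn and Cldn5, were at 0 in all 4 expanded libraries, as were 5.26% of the genes tested. These counts are descriptions: Cdh5, Kdr, Tek, Tie1, Emcn, Esam and Cldn5 passed the filter only through the fresh libraries, where they are high. Of the markers that would have passed on the expanded libraries alone, Pecam1 and Flt1 were called lower in both lineages and Egfl7 in neither.

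**Figure D2:**
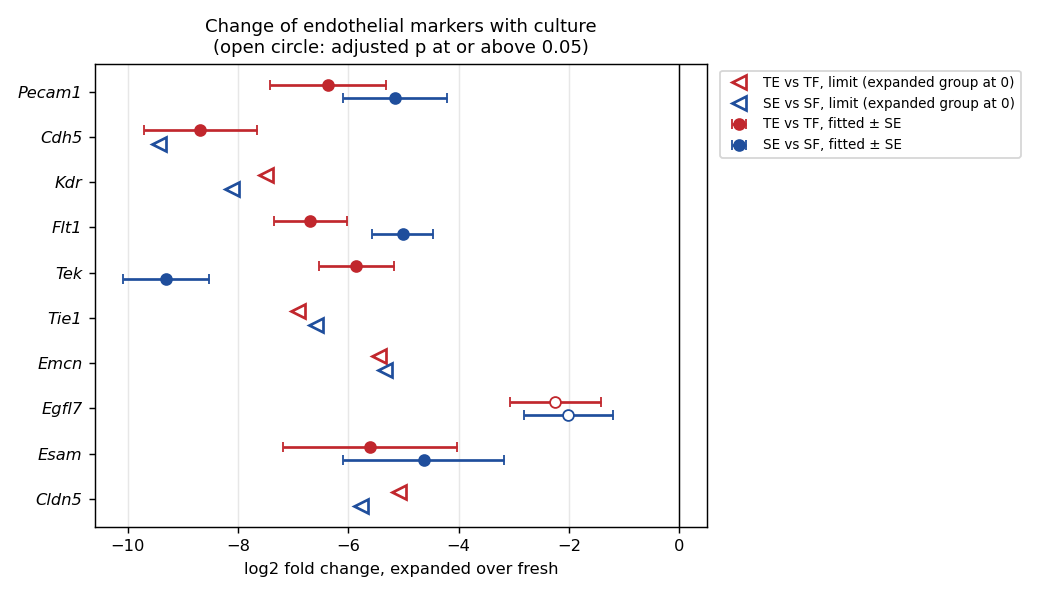
Log2 fold change of each marker from fresh to expanded cells, for teratoma-derived cells (red) and satellite cells (blue); circles with bars are fitted values with their SE, and open triangles are limits for genes at 0 in both expanded libraries. All values lie below 0, and Egfl7, at −2.24 and −2.01, is nearest to 0 and the only one with open circles. The circles for Cdh5 in teratoma-derived cells and Tek in satellite cells rest on expanded means under the floor.

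For the 4 markers grouped only by being at 0 in every expanded library, the 250 bases of sequence before their RefSeq start sites are shown (RefSeq, GRCm38.p6). They were searched on both strands for AGGAAG and CGGAAG, each holding the GGAA core that ETS-family factors such as Erg and Fli1 bind. Matches are in capitals, and a match on the other strand reads CTTCCT or CTTCCG. Kdr lies on the minus strand of chromosome 5, with the window at chr5:75978456-75978705, and Tie1 on the minus strand of chromosome 4, with the window at chr4:118489850-118490099. Emcn and Cldn5 are on plus strands, with windows at chr3:137340828-137341077 and chr16:18776597-18776846.
Kdr: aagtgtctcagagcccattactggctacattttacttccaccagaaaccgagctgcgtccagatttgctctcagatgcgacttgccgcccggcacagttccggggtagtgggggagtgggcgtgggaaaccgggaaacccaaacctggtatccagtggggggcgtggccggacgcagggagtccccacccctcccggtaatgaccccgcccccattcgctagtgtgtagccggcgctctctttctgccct
Tie1: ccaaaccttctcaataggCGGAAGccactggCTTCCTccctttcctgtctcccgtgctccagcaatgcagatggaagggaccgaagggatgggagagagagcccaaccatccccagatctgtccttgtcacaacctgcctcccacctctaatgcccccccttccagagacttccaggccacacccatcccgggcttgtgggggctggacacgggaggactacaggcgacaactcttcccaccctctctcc
Emcn: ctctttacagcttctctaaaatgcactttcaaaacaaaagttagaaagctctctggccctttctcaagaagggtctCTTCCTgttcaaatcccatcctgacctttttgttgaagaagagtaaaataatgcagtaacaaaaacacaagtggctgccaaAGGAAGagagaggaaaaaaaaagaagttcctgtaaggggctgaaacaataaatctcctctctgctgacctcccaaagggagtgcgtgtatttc
Cldn5: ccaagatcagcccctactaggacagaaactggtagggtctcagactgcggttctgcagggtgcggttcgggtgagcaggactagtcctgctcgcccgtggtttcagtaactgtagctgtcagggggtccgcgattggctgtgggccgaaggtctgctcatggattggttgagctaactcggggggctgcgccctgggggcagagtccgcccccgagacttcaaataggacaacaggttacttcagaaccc

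Tie1 and Emcn each held 2 matches, and Kdr and Cldn5 held none of these exact letters. RefSeq entries were matched for 7 of the 10 markers, with 9 start sites, and 5 of those windows from 4 markers (Flt1, Tie1, Emcn and Egfl7) held a match. Over all 32851 promoter windows of the same length, 39.2% held at least 1 of the 2 motifs.

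Between the 2 fresh groups 1 of the 10 markers was called. Tek was 2.40 lower in TF than in SF on the log2 scale (SE 0.508, adjusted p = 0.0088), where 9.13% of the genes tested were called lower and 15.1% higher. Its call held in all 15 alternatives, at values from −2.91 without TF replicate 1 to −2.03 without TF replicate 2. Flt1 was at −1.44 (SE 0.471, adjusted p = 0.0519) and was called in 11 of the 15 alternatives. Kdr, Flt1 and Tek had groups that did not overlap, against 29.3% of genes tested that were lower without overlap.

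The other markers were not called. Kdr was at −0.63 (SE 0.351), Pecam1 at −0.98 (SE 0.773), Cdh5 and Cldn5 both at −0.71 (SE 0.633 and 0.933), Esam at −0.35 (SE 1.22) and Egfl7 at −0.32 (SE 0.774). Tie1 was at 0.29 (SE 0.775) and Emcn at 0.081 (SE 0.943), which turned to −0.069 with median-ratio scaling, and that scaling moved the median of all genes from 0.080 to −0.079. With TF replicate 1 left out, Pecam1 was at −3.43 (adjusted p = 0.0027) and Cdh5 at −2.23 (adjusted p = 0.0195). With TF replicate 2 left out they were at −0.12 and 0.0070. Cldn5 was at −1.74 and Kdr at −0.91 without TF replicate 1, and at −0.12 and −0.41 without replicate 2. Esam, Egfl7 and Tie1 turned with the TF replicate, at −1.35, −1.64 and −1.49 without replicate 1 and at 0.23, 0.34 and 1.06 without replicate 2.

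TF replicate 1 held more of every endothelial marker than TF replicate 2, by factors that differed between genes. The ratio of replicate 1 to replicate 2 was 9.99 for Pecam1 (95% exact interval 7.79 to 13.0), 5.90 for Tie1 (4.54 to 7.77) and 4.76 for Cdh5 (4.19 to 5.43). At the other end it was 2.03 for Flt1 (1.74 to 2.36), 1.86 for Tek (1.51 to 2.29) and 1.43 for Kdr (1.22 to 1.67). These intervals cover counting error only. All 10 intervals lay above 1, while over 13588 genes the median ratio was 1.001 and the central 90% ran from 0.514 to 2.55. Kdr, Tek, Flt1 and Emcn (2.41) lay inside that range, and the other markers above it. Beside the markers, the haematopoietic list had a summed ratio of 9.79, Ptprc of 7.84, the myogenic list of 0.801 and the fibro-adipogenic list of 0.883. The part of these other cells in the TF values was not tested.

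In satellite cells the order was the opposite and the gaps smaller. SF replicate 1 was below SF replicate 2 for all 10 markers, from 0.327 for Egfl7 to 0.907 for Flt1, and 9 of the 10 intervals lay below 1. Tie1 was the one whose interval held 1. The median ratio over 14065 genes was 0.940, and the central 90% ran from 0.538 to 3.16, which holds 7 of the 10 markers. The summed ratio was 1.29 for the haematopoietic list, 0.577 for the fibro-adipogenic list and 0.832 for the myogenic list. Their part in the SF values was not tested.

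**Figure D3:**
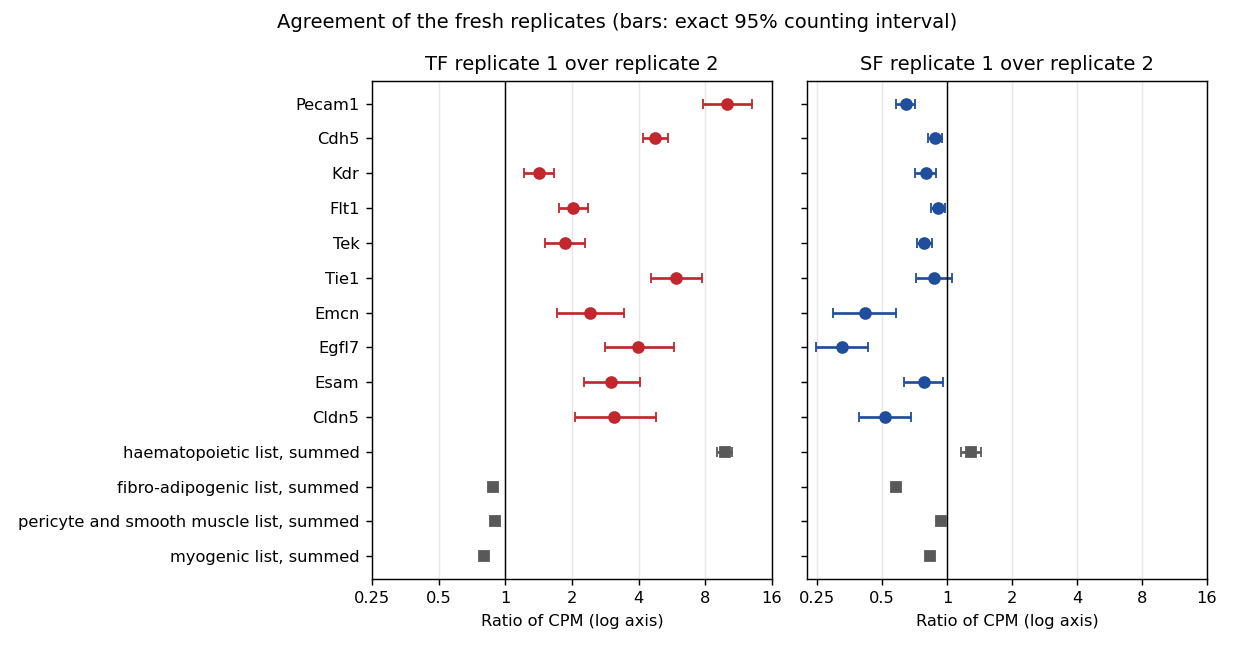
Ratio of CPM in replicate 1 over replicate 2 (log axis) for each marker and for 4 summed lists, in TF (left) and SF (right), with exact 95% counting intervals. In TF all markers lie right of 1, from 1.43 for Kdr to 9.99 for Pecam1, next to 9.79 for the haematopoietic list, and in SF all lie left of 1.

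The markers were also set against Cdh5 within each library, which leaves out differences in the amount of Cdh5 between libraries. In SF the replicates lay close for some genes: per 100 Cdh5 counts there were 76.5 and 85.9 of Tek, 82.1 and 79.6 of Flt1, 37.7 and 41.6 of Kdr and 13.8 and 14.0 of Tie1. For Egfl7 (4.94 and 13.3), Emcn (3.65 and 7.70), Cldn5 (5.73 and 9.74) and Pecam1 (46.0 and 62.8) the 2 SF libraries had intervals apart. In TF replicate 1 Tek, Flt1, Kdr and Tie1 stood at 19.9, 39.6, 29.8 and 28.8, and in TF replicate 2 at 51.0, 93.1, 99.7 and 23.3. Tek was thus low against Cdh5 in both TF libraries and Tie1 high in both, with intervals clear of the SF ones. Kdr was above the SF values in TF replicate 2 and below them in TF replicate 1, and Flt1 was low in TF replicate 1 alone. Pecam1 stood at 50.3 and 24.0 per 100 Cdh5 counts in TF and 46.0 and 62.8 in SF, and was lowest in TF replicate 2. The 2 TF libraries therefore differed in the proportions of the markers as well as in their amount.

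**Figure D4:**
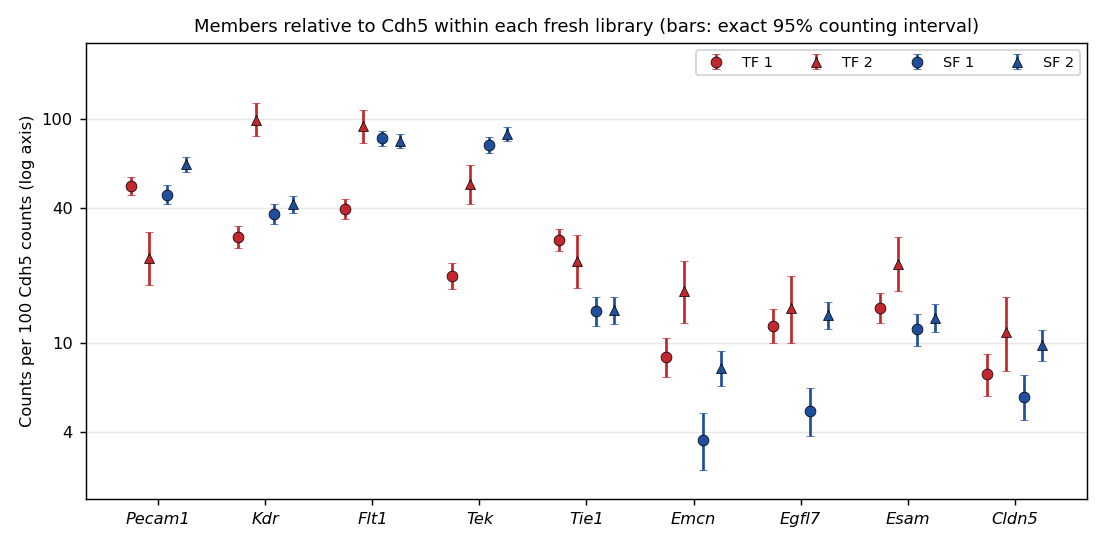
Counts of each marker per 100 Cdh5 counts (log axis) in the 4 fresh libraries, with exact 95% counting intervals. Tek lies lower in TF (19.9 and 51.0) than in SF (76.5 and 85.9) and Tie1 higher (28.8 and 23.3 against 13.8 and 14.0), while Kdr and Flt1 split the 2 TF libraries.

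Between the expanded groups Flt1 alone was called, 3.11 lower in TE than in SE on the log2 scale (SE 0.666, adjusted p = 0.0218), where 4.07% of the genes tested were called lower. The call was lost without TE replicate 2 (−2.26, adjusted p = 0.0585) and when the 2 groups were fitted alone (adjusted p = 0.176), and the value rested on 1 count without TE replicate 1. Pecam1 was at −2.20 (SE 1.05, adjusted p = 0.293), with both SE libraries above both TE libraries. Egfl7 was at −0.55 (SE 0.795), Esam at −1.33 (SE 1.53) and Tek at 1.05 (SE 1.02), and the last of these was at −0.016 without SE replicate 1. The Tek mean in the SE group was under the floor. The groups of Pecam1, Flt1 and Egfl7 did not overlap, against 26.1% of genes tested that were lower without overlap. Cdh5, Kdr, Tie1, Emcn and Cldn5 were at or under the floor in both groups, so no fold is given.

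Whether culture lowered the markers by different amounts in the 2 lineages was tested by the interaction, the change from TF to TE minus the change from SF to SE. No marker was called by edgeR, and 1 had an unadjusted p below 0.05, where 14.3% of the genes tested were called. That one was Tek, at 3.45 (SE 1.14, adjusted p = 0.0737), which was called in 4 of 14 alternatives, among them DESeq2 (adjusted p = 0.0032). Tek was at 3.09 without TF replicate 2, 3.97 without TF replicate 1 and 2.39 without SE replicate 1. Its mean in the SE group was under the floor, so 3.45 is not a measured size. Flt1 was at −1.67 (SE 0.821), was called in 2 of 14 alternatives and ran from −0.82 without TE replicate 2 to −4.05 without TE replicate 1, which rests on 1 count. Pecam1 was at −1.22 (SE 1.30), Esam at −0.98 (SE 1.92) and Egfl7 at −0.23 (SE 1.10). For the other 5 an expanded group was at 0 and no size can be given. Of these, Kdr, Tie1, Emcn and Cldn5 were at 0 in both expanded groups. The interaction could not call them, so their lack of a call says nothing of a lineage difference.

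Levels of different genes were compared per kilobase of merged exon (GENCODE M21, GRCm38). In fresh cells Cdh5 stood first, with a mean of 16.6 CPM per kilobase in TF and 27.1 in SF, and Emcn last, with 2.57 and 2.43. Tek was second in SF at 18.8 CPM per kilobase and eighth in TF at 3.56. In SF its replicates, 16.5 and 21.1, lay above the 11.3 and 17.5 of Pecam1 in order but overlapped them. In the 2 expanded groups Egfl7 stood first, at 0.913 CPM per kilobase in TE and 1.34 in SE, ahead of Esam and Pecam1 at 0.111 and 0.0865 in TE and at 0.291 and 0.399 in SE. For Egfl7 the replicates gave 0.914 and 0.912 in TE and 1.28 and 1.40 in SE, above every other marker's expanded libraries.

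The genes lie on 8 chromosomes, and Kdr with Flt1 share chromosome 5 and Tek with Tie1 chromosome 4. In GENCODE M21 on GRCm38, Pecam1 is at chr11:106654217-106750628 on the minus strand and Cdh5 at chr8:104101625-104144511 on the plus strand. Tek is at chr4:94739289-94874976 and Egfl7 at chr2:26580014-26593120, both on the plus strand, and Flt1 at chr5:147561604-147726011 on the minus strand. All counts are sums over a gene's transcripts, and those of Flt1 were not whole, its reads being shared out by the estimator.

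Other genes of endothelial identity went the same way with culture. Of 20 such genes besides the markers, 12 were called lower in TE than in TF and 19 in SE than in SF, against 16.2% and 19.8% of genes tested. The medians were −3.54 and −4.34 on the log2 scale, against −0.18 and −0.23 over all genes tested. Their summed level was 463 and 207 CPM in TF, 400 and 496 CPM in SF, 80.7 and 86.0 CPM in TE and 25.1 and 53.2 CPM in SE. Plvap, a protein of endothelial fenestrae, was at −6.27 in TE (SE 0.965, adjusted p = 0.0013) and −4.35 in SE (SE 0.856, adjusted p = 0.0031). Nos3, the endothelial nitric oxide synthase, was at −6.54 in TE (SE 1.246, adjusted p = 0.0042) and −7.17 in SE (SE 1.24, adjusted p = 0.0015). It held 3 and 0 counts in TE and 0 and 4.09 in SE. Both Nos3 means, 0.0756 and 0.117 CPM, were under the group floors of 0.153 and 0.156 CPM, so neither size is measured. For genes at 0 in an expanded group only limits can be given, and their order says nothing of the size of the fall. They included Clec14a, a C-type lectin of vessel sprouts, Gpihbp1, which carries lipoprotein lipase across capillaries, Robo4, an endothelial roundabout receptor, and Myct1. Clec14a was at least 46.9-fold lower in TE (adjusted p = 0.0030), 39.0-fold without TF replicate 1, and at least 26.9-fold lower in SE (adjusted p = 0.0025). Gpihbp1 was at least 65.6-fold lower in SE (adjusted p = 0.0150); in TF it rested on replicate 1, at 10.5 CPM against 0.0798 CPM in replicate 2, and its limit of 34.5-fold in TE (adjusted p = 0.0311) gives no fold without TF replicate 1 and is 68.5-fold without TF replicate 2. That call was also lost without either TE replicate (adjusted p = 0.0610 and 0.0591). Robo4 was at least 27.2-fold lower in TE (adjusted p = 0.0166), 6.24-fold without TF replicate 1 and 48.2-fold without TF replicate 2. Myct1 was at least 18.9-fold lower in SE (adjusted p = 0.0343), 5.57-fold without SF replicate 2 and 32.3-fold without SF replicate 1, and its call was lost without SF replicate 2 or either SE replicate (adjusted p of 0.0913 to 0.172). S1pr1, a receptor for sphingosine-1-phosphate, was the one gene not called in either lineage, at 0.31 and 0.22. Its SE replicates disagreed, at 4.43 and 30.5 CPM, and lay below and above the 17.7 and 12.4 CPM of SF.

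Eng and Ptprb stood out from the list. Eng, the TGF-β coreceptor endoglin, was at 86.1 and 76.9 CPM in TF, 43.0 and 41.9 CPM in TE, 40.3 and 65.2 CPM in SF and 2.69 and 2.52 CPM in SE. Ptprb, the phosphatase VE-PTP that acts on the TEK receptor and VE-cadherin, was at 34.4 and 32.9 CPM in TF, 6.20 and 8.25 CPM in TE, 107 and 116 CPM in SF and 0.143 and 1.37 CPM in SE. Both were above the floor in both TE libraries, where Kdr and Tie1 were at 0 and Cdh5 at 6 and 0 counts. Eng was 4.02 higher in TE than in SE (SE 0.293, adjusted p = 9.3e-05, where 3.15% of the genes tested were called higher) and Ptprb 3.31 higher (SE 0.597, adjusted p = 0.0099), the latter not called with the 2 groups fitted alone (adjusted p = 0.103) and at 2.40 without SE replicate 1 and 5.60 without SE replicate 2. In fresh cells Ptprb was lower in TF than in SF by 1.73 (SE 0.477, adjusted p = 0.0269), as Tek was, and Ushbp1 by 1.91 (SE 0.541, adjusted p = 0.0302), and these were the only 2 of the 20 called. Ptprb lost that call without any 1 of the 4 fresh libraries (adjusted p of 0.0713 to 0.0865), and Ushbp1 without TF replicate 2 or either SF replicate (0.0701 to 0.149). Neither TF replicate stood out for Ptprb or Eng, whose ratios of replicate 1 to 2 were 1.05 and 1.12.

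Ligands of these receptors and further receptors did not move as one. Of 11 such genes, 8 were called lower and 1 higher in TE than in TF, where 16.2% of the genes tested were called lower and 9.86% higher. In SE against SF 4 were called lower and 3 higher, where 19.8% of the genes tested were called lower and 20.9% higher. The higher calls are near those shares. The receptors Flt4, Nrp1 and Nrp2 were called lower in both lineages. Flt4, the VEGF-C receptor of lymphatic endothelium, was at least 66.9-fold lower in SE (adjusted p = 0.0069) and 6.54 lower on the log2 scale in TE (SE 1.80, adjusted p = 0.0278), where TF replicate 1 held 10.7 CPM and replicate 2 held 0.319. TE held 0 and 2 Flt4 counts, with a mean of 0.0519 CPM, under the floor. The fall in TE was not called without TF replicate 1 (−2.45, adjusted p = 0.335) or TE replicate 1 (−5.59, adjusted p = 0.0865), and was −7.47 without TF replicate 2; without TE replicate 2 Flt4 was at least 36.3-fold lower. Nrp2, a neuropilin coreceptor, fell by 3.82 in TE (SE 0.336, adjusted p = 4.8e-05) and by 2.55 in SE (SE 0.317, adjusted p = 0.00022). Vegfd fell by 4.06 in TE (SE 0.998, adjusted p = 0.0150), Angpt4 was at least 12.7-fold lower there (adjusted p = 0.0381), and Angpt2, the context-dependent TEK antagonist, fell by 2.43 in SE (SE 0.710, adjusted p = 0.0219). Calls of Vegfd were lost without any 1 TF or TE library (adjusted p of 0.0509 to 0.122), those of Angpt4 without any 1 of these or SF replicate 2 (0.0701 to 0.176), and that of Angpt2 without SF replicate 1 or SE replicate 2 (0.0887 and 0.0662). The limit for Angpt4 was 7.67-fold without TF replicate 2. Vegfa, made by many cell types and not by endothelium in particular, rose by 0.93 in TE (SE 0.206, adjusted p = 0.0090). In fresh cells Vegfb, Angpt1 and Pgf were higher in TF than in SF, by 2.17 (SE 0.357, adjusted p = 0.0026), 1.85 (SE 0.291, adjusted p = 0.0021) and 1.74 (SE 0.507, adjusted p = 0.0332), and Vegfa lower by 0.72 (SE 0.205, adjusted p = 0.0308). Pgf was not called without TF replicate 1 (1.54, adjusted p = 0.103) or SF replicate 1 (1.19, adjusted p = 0.136) and was at 2.62 without SF replicate 2. Vegfa was not called without TF replicate 1, TF replicate 2, either TE replicate or SF replicate 2 (adjusted p of 0.0733 to 0.189).

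Angpt1, the activating TEK ligand, moved in opposite directions in the 2 lineages. It was at 39.6 and 30.0 CPM in TF and 9.94 and 12.5 CPM in TE, but at 9.23 and 10.1 CPM in SF and 32.8 and 33.5 CPM in SE. It fell by 1.63 in teratoma-derived cells (SE 0.287, adjusted p = 0.0028) and rose by 1.78 in satellite cells (SE 0.290, adjusted p = 0.0011), and after culture was 1.56 lower in TE than in SE (SE 0.286, adjusted p = 0.0107), a call lost without either TE replicate (adjusted p = 0.123 and 0.0542). Vegfb rose by 2.68 from SF to SE (SE 0.362, adjusted p = 0.00035) and was at 0.27 from TF to TE (SE 0.335, adjusted p = 0.579).

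Transcription factors tied to endothelium fell in part. Of 12 listed, 11 were tested, and 5 were called lower and 1 higher in TE than in TF, and 6 lower and 2 higher in SE than in SF. Over all genes tested 16.2% and 9.86% were called lower and higher in TE, and 19.8% and 20.9% in SE, so the higher calls are near those shares. Sox7 was at 26.4 and 5.82 CPM in TF and 20.3 and 25.5 CPM in SF, and at 0 to 0.914 CPM in expanded libraries, with changes of −7.57 in TE (SE 1.09, adjusted p = 0.00087) and −4.99 in SE (SE 0.884, adjusted p = 0.0017). Its mean in TE, 0.0778 CPM, was under that group's floor of 0.153 CPM. The change in TE was −6.09 without TF replicate 1, −8.26 without TF replicate 2, −6.59 without TE replicate 1 and at least 107-fold without TE replicate 2. Erg fell by 5.97 in TE (SE 0.814, adjusted p = 0.00063) and Fli1 fell by 4.36 in SE (SE 0.991, adjusted p = 0.0065). The Erg mean in TE, 0.130 CPM, was also under the floor. Sox17 and Sox18, of the same SOX subgroup as Sox7, were at 0 in all expanded libraries. Sox17 was at least 26.5-fold lower in TE (adjusted p = 0.0036) and at least 51.0-fold lower in SE (adjusted p = 0.0014). Sox18 was at least 15.9-fold lower in TE (adjusted p = 0.0442), 9.87-fold without TF replicate 1, and at least 8.94-fold lower in SE (adjusted p = 0.0419), 3.25-fold without SF replicate 2 and 14.6-fold without SF replicate 1. Its calls were lost without most single libraries, in TE without either TF or TE replicate or SF replicate 2 (adjusted p of 0.0768 to 0.195) and in SE without either TF or SE replicate or SF replicate 2 (0.0765 to 0.157). Foxc2 and Gata2, which are not confined to endothelium, were the higher calls, Foxc2 by 1.89 in TE (SE 0.621, adjusted p = 0.0495) and 2.15 in SE (SE 0.620, adjusted p = 0.0204), and Gata2 by 2.34 in SE (SE 0.383, adjusted p = 0.0011).

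Most tested markers of other non-myogenic cells were called lower after culture, but not all. Of 11 haematopoietic markers tested, 9 were called lower from TF to TE and 6 from SF to SE, where Laptm5 was called higher (3.10, SE 1.05, adjusted p = 0.0404). The 12 on that list summed to 546 and 55.7 CPM in TF, 6.73 and 5.70 CPM in TE, 55.9 and 43.2 CPM in SF and 10.9 and 18.0 CPM in SE, with Ptprc, Tyrobp, C1qa and Adgre1 at 0 in the 4 expanded libraries. All 10 fibro-adipogenic markers were called lower from TF to TE and 9 from SF to SE, 7 of 8 pericyte and smooth muscle markers tested in each lineage, and 3 and 4 of 6 Schwann cell markers. These counts stand against the 16.2% and 19.8% of genes tested that were called lower. The 10 fibro-adipogenic markers summed to 5324 and 6032 CPM in TF, 1387 and 2403 CPM in SF and 14.2 to 85.9 CPM in expanded libraries. The 9 pericyte and smooth muscle markers went from 1419 to 1945 CPM down to 308 to 367 CPM, and the 6 Schwann cell markers from 12.9 to 114 CPM down to 4.56 to 10.4 CPM. Single genes weighed heavily in 2 of these sums. Notch3 gave 600 to 997 CPM of the fresh and 155 to 217 CPM of the expanded pericyte and smooth muscle sums. Col15a1 gave 3161 and 3820 CPM of the fibro-adipogenic sums in TF. The 10 myogenic markers summed to 1764 and 2203 CPM in TF and 2409 and 2477 CPM in TE. In satellite cells they summed to 4210 and 5058 CPM in SF and 3214 and 3627 CPM in SE. The sum was thus higher after culture in teratoma-derived cells and lower in satellite cells, without overlap in either lineage. Single myogenic markers went both ways: 5 were called lower and 4 higher from TF to TE, and 6 lower and 2 higher from SF to SE. Over all genes tested 9.86% and 20.9% were called higher. Calcr was at 0 in all 4 expanded libraries. The part of cell composition in the change of the endothelial markers was not tested.

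**Figure D5:**
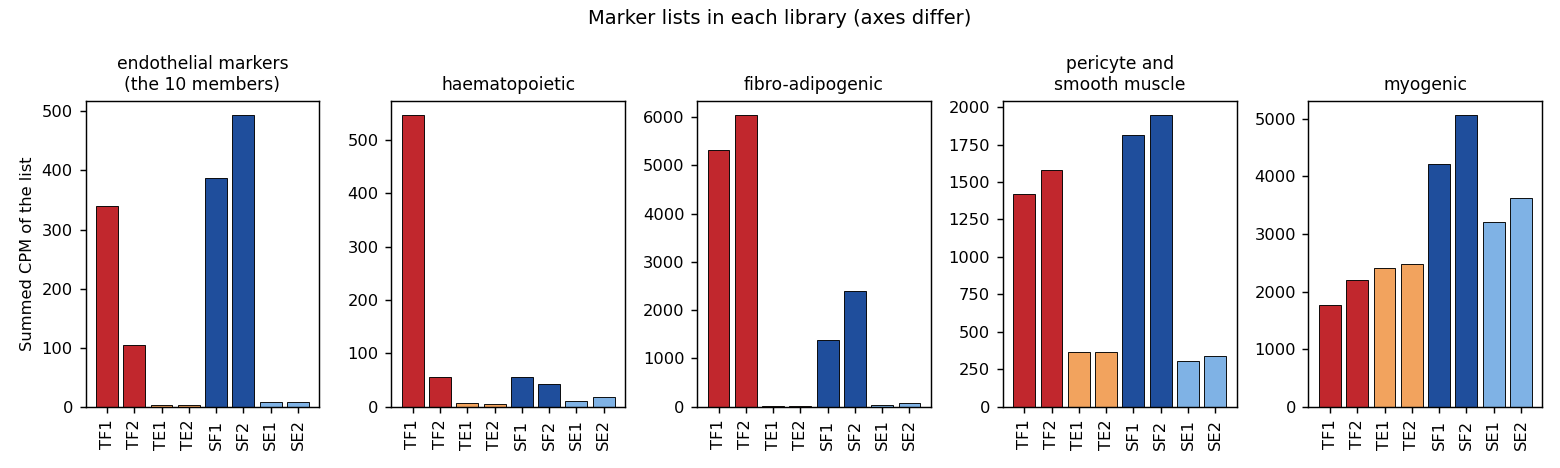
Summed CPM of the 10 endothelial markers and of 4 other marker lists in each library (axes start at 0 and differ between panels). The endothelial, haematopoietic and fibro-adipogenic bars nearly vanish in TE and SE, the myogenic ones do not, and TF1 stands out in the haematopoietic panel at 546 CPM.

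Across the 8 libraries each marker followed the mean of the other 9, with a Pearson r of log2(CPM + 0.1) from 0.882 for Egfl7 to 0.996 for Cldn5. These values are descriptions, since all points share the split into fresh and expanded. Outside the markers, the 8 genes whose pattern was most like their mean were Gng4 (r = 0.995), Arid4a, Tnfsf8, Csf2rb, Icosl, Tob2, Klhl4 and Wscd2 (r = 0.992). For Cdh5 by itself the nearest 5 were Slco2b1 (r = 0.996), Arid4a, Pm20d1, Akap12 and Cxcl2 (r = 0.990). None of the 12 genes was on the lists used here. Arid4a went from 65.7 to 83.9 CPM in fresh cells to 39.2 to 42.4 CPM in expanded ones, so a like pattern does not mean a like size of change.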

How the data were processed

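Total RNA of 8 libraries (SMARTer stranded, paired-end) was quantified by the authors and deposited as estimated counts per gene symbol, with no length or depth correction. The submitters' processing notes name CASAVA, kallisto 0.44.0, GRCm38 and mm10. Counting gene by gene can share reads between related or overlapping genes, and reads of precursor RNA such as Rn45s (7.99% to 21.3% of a library) take depth from other genes.

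Here the estimated counts were rounded and tested in edgeR 4.0.16 (R 4.3.3): filterByExpr by group (0.590 CPM in at least 2 libraries), TMM scaling, 1 quasi-likelihood fit over the 4 groups with 4 residual degrees of freedom, and Benjamini-Hochberg adjustment over 17582 genes. DESeq2 1.42.0 was an alternative. The fit was tested on simulated counts. CPM used unrounded counts and TMM library sizes. A group with both libraries at 0 was set to 3 counts per library, averaged as CPM, which gives a limit in place of a fold.

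The endothelial markers and all gene lists were chosen with earlier results of these data known. All 10 markers were described; from the endothelial, ligand and receptor, and transcription factor lists, up to 4 called genes per list and comparison were named by size of the fitted change, and Mir126 rows, S1pr1, Nos3, Plvap, Laptm5, Foxc2 and Gata2 after their values were seen. Replicates did not repeat a library: the chi-square per degree of freedom between them ran from 12.1 (TE) to 93.0 (SE). Every sample column was used.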

Additional observations from a re-analysis of the deposited data

Results flagged for a closer look

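No endothelial marker's culture effect was called as different between teratoma-derived and satellite cells, but 4 related genes were, by edgeR's interaction test (change from TF to TE minus change from SF to SE, log2, adjusted over all genes tested). Kdr, Tie1, Emcn and Cldn5, at 0 in every expanded library, could not be called. The related calls were 2 of 20 identity genes, 2 of 11 ligands and receptors and 0 of 11 transcription factors tested. Over all genes tested 14.3% were called, so these calls are near that share. Ptprb was at 5.04 (SE 0.765, adjusted p = 0.0029) and Eng at 3.40 (SE 0.375, adjusted p = 0.00064), both falling less in teratoma-derived cells. Ptprb was at 4.13 without SE replicate 1 and at 7.32 without SE replicate 2. Angpt1 was at −3.41 (SE 0.408, adjusted p = 0.00090) and moved in opposite directions in the 2 lineages. Vegfb was at −2.41 (SE 0.486, adjusted p = 0.0105) and rose in satellite cells. All 4 were called in each of the 14 alternatives that could be fitted.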

How the results depend on the processing

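Of 10 markers, 9 were called from TF to TE and 9 from SF to SE; both counts were 10 without the filter and with DESeq2, and 8 to 10 with 1 library left out. From TF to SF the count of 1 became 2 with median-ratio scaling, DESeq2, Rn45s left out, or the 2 groups alone, 3 without the filter, and 1 to 4 with 1 library left out. From TE to SE the count of 1 became 3 without the filter, 0 with the 2 groups alone (where 7 markers were not tested) and 0 to 2 with 1 library left out. The interaction count of 0 became 3 without the filter, 1 with DESeq2 and 0 to 2 with 1 library left out.

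No pairing of the samples by replicate number was visible: replicate differences of the groups correlated at −0.023 to 0.066. These correlations cannot show that no pairing existed, since a pairing need not leave a trace in them. With the replicate number as a block the TF to SF count was 2, Tie1 in that comparison was at −0.18, and Sox18, Myct1, Angpt4 and Flt4 lost a call.

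Some directions turned. For TF to SF, Emcn was at −0.069 with median-ratio scaling, −0.068 with DESeq2, −0.063 without Rn45s and −0.0098 with the 2 groups alone; with 1 library left out the ranges were −2.23 to 0.0070 for Cdh5, −1.49 to 1.06 for Tie1, −0.69 to 0.86 for Emcn, −1.64 to 0.72 for Egfl7 and −1.35 to 0.23 for Esam. For TE to SE they were −0.016 to 5.23 for Tek and −6.10 to 4.80 for Esam, and for the interaction −2.06 to 1.245 for Pecam1, −1.27 to 1.10 for Egfl7 and −5.75 to 5.14 for Esam. The ends of the Tek and Esam ranges beyond 4 in size come from fits whose lone library was at 0 counts and are not sizes of change. The cause was not tested.

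Over all genes, calls from TF to TE numbered 4581, against 2759 and 2739 without TE replicate 1 or 2. From TF to SF they were 4261 against 2639 and 2671 without TF replicate 1 or 2, and median-ratio scaling moved the split from 2655 higher and 1606 lower to 2110 and 1943. From TE to SE 1268 became 2260 without the filter, 2122 with DESeq2, and 666 and 653 without TE replicate 1 or 2. The interaction gave 2517, against 1473 and 1467.

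With 2 replicates a group, and 0 to 8 counts for 6 of the 10 markers in expanded libraries, sizes of change rest on few reads there. Left-out fits assume that a lone library varies like the other groups.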
